A study of Mus musculus with 2 samples.

Results

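The genes described here are Myc, which encodes the transcription factor c-Myc, and 30 genes whose products build ribosomes or serve the growth program around them. They were chosen with earlier results of these data known. They make up 31 of the 31017 gene symbols in a table of single-cell RNA counts from mouse spleen. All 31 had a row in the table and UMIs in the B cells, and each is accounted for below.

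The labels name 2 mouse samples of whole spleen cells, 1 titled WAS660 and 1 titled WT664, from animals 6 to 8 weeks old. The protocol gives the genotypes as WAS-KO, which lacks the actin regulator WASP that is mutated in Wiskott-Aldrich syndrome, and wild type. No treatment, sorting or cell enrichment is named in the labels, and the disease model tag stands on both samples. The counts were one table in which every barcode carried the same suffix in 1 alphabetical series, so no barcode could be assigned to WAS-KO or WT, no genotype comparison was made and barcodes shared by the libraries could not be counted. The table was read as 1 pooled sample. Cells are not replicates, so no test was run, and every interval below is a 95% interval that covers counting error only.

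c-Myc binds DNA as a dimer with Max and raises the transcription of genes for growth, of which those for ribosome production are among its best known targets. Ribosomes are assembled in the nucleolus: RNA polymerase I makes the precursor RNA, small nucleolar ribonucleoproteins modify it, and assembly factors fold and cut it into the small and the large subunit. In resting lymphocytes Myc RNA is low, and it is induced within hours of stimulation through the antigen receptor, when the cell enlarges and its nucleoli grow.

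The dimer of c-Myc and Max prefers the E-box CACGTG, and RefSeq promoter windows of GRCm38.p6 (250 bases before to 50 bases after a transcript's start) were searched for these 6 letters, which read the same on both strands. Windows were found for 24 of the 31 members, and no other motif was searched. Myc, Srm, Fbl, Npm1, Rrp12, Bop1 and Rrs1 had none. CACGTG stood in 4 of the 26 member windows (15.4%) and in 2346 of all 32817 windows (7.15%). The 4 windows with a match are shown because the same members are followed through the comparisons with Myc below. The capitals mark CACGTG, which begins 18 bases after the start in Wdr43 (chr17:71615965-71616264), 39 in Mdn1 (chr4:32656869-32657168), 3 in Pes1 (chr11:3963725-3964024) and 25 in Tsr1 (chr11:74897830-74898129), all on the plus strand. A match describes the letters of a window and is not evidence of binding.
Wdr43: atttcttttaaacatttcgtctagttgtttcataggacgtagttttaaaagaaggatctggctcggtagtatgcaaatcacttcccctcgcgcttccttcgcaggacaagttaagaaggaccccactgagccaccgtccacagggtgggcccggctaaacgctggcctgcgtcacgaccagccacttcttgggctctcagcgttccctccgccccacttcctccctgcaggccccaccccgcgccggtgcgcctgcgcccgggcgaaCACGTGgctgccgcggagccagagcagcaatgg
Mdn1: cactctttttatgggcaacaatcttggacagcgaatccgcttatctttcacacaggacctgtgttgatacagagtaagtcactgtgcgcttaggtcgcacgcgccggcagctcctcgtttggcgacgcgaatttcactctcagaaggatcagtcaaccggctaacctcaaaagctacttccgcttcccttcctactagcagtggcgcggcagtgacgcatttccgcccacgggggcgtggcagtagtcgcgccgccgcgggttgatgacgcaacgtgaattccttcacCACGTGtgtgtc
Pes1: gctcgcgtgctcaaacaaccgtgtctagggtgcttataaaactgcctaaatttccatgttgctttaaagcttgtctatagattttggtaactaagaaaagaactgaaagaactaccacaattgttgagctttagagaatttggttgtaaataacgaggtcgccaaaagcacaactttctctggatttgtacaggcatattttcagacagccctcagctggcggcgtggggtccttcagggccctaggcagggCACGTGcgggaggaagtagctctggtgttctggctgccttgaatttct
Tsr1: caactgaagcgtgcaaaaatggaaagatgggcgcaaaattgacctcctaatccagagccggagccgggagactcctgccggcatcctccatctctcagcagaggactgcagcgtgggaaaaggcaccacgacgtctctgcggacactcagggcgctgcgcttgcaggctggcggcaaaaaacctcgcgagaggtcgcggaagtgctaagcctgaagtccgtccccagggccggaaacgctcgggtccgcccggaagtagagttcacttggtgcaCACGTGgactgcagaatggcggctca

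Of 7524 barcodes, 6588 had at least 200 genes and at most 10% mitochondrial UMIs, and these held 44751473 UMIs with a median of 5339 per cell. Cells were placed in classes by gates of 6 marker genes, none of them a member: at least 2 markers had to be detected, and at least 2 more than of any other gate. The B gate held 2939 cells, the T gate 1071, macrophage 469, NK 305, erythroid 234, monocyte 136, neutrophil 132 and plasma 40, and 1197 cells passed no gate. Median depth ran from 888 UMIs in macrophage-gated to 29101.5 in plasma-gated cells, so levels are given as UMIs per 1000000 of a gate's summed UMIs (CPM). In each of these 8 gates all 6 markers were higher than in the other kept cells. Erythroid-gated and macrophage-gated cells held 672001 and 367534 CPM of haemoglobin RNA, which lowers the CPM of every other gene there.

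Myc was highest in B-gated cells, at 98.4 CPM (93.9 to 103.1). T-gated cells had 42.9 CPM (38.5 to 47.7), erythroid-gated cells 41.1 (34.0 to 49.3) and NK-gated cells 29.6 (21.7 to 39.5). These levels stand in order, but the intervals of T, erythroid and NK overlapped in turn. The erythroid level rested on 4 of 234 cells, each over 50000 UMIs and described below, which held 113 of its 117 Myc UMIs. The other 230 erythroid-gated cells stood at 1.66 CPM (0.452 to 4.25). Macrophage-gated cells followed at 17.3 CPM (10.5 to 26.7), plasma-gated at 14.5 (8.44 to 23.2), monocyte-gated at 11.3 (6.68 to 17.8) and neutrophil-gated at 2.34 (0.482 to 6.83). The lower gates could not be ordered beyond counting error, other than that neutrophil-gated cells lay below macrophage-gated and plasma-gated cells.

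A Myc UMI was seen in 850 of 2939 B-gated cells (28.9%), 237 T-gated cells (22.1%) and 30 NK-gated cells (9.84%). Because deeper cells give more chances to see a UMI, every cell was also reduced at random to 1000 UMIs, which dropped 16 B-gated, 6 T-gated and 271 macrophage-gated cells that held fewer. At this depth the share was 8.04% of B-gated cells (7.08% to 9.09%), 3.66% of T-gated cells (2.62% to 4.97%), 2.30% of NK-gated and 2.02% of macrophage-gated cells. None of 131 neutrophil-gated and none of 136 monocyte-gated cells had one, which allows shares of up to 2.29% and 2.21%. The exact intervals of neutrophil-gated and monocyte-gated cells reached 2.78% and 2.68%. The interval of B-gated cells lay above both, while that of T-gated cells began just below them. The shares in NK-gated and macrophage-gated cells did not lie clearly above these limits.

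The other 30 members together reached 3621 CPM (3594 to 3649) in B-gated and 3577 CPM (3535 to 3618) in T-gated cells, which overlap. Erythroid-gated cells had 3168 CPM (3103 to 3234), NK-gated cells 2250 (2176 to 2325), plasma-gated cells 1683 (1610 to 1759), monocyte-gated cells 1640 (1578 to 1704), macrophage-gated cells 1314 (1249 to 1382) and neutrophil-gated cells 297 (268 to 328). In the erythroid gate the same 4 deep cells held 7524 of the 9015 member UMIs, and the other 230 cells stood at 618 CPM (587 to 651). By highest gate, 16 of the 30 were highest in B-gated cells, 10 in T-gated cells, 3 in erythroid-gated cells and 1 in plasma-gated cells, while 27 were lowest in neutrophil-gated and 3 in macrophage-gated cells. Npm1 and Ncl, the abundant nucleolar chaperone and scaffold, made up 25.43% and 18.04% of the 30 members' UMIs in B-gated cells.

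**Figure D1:**
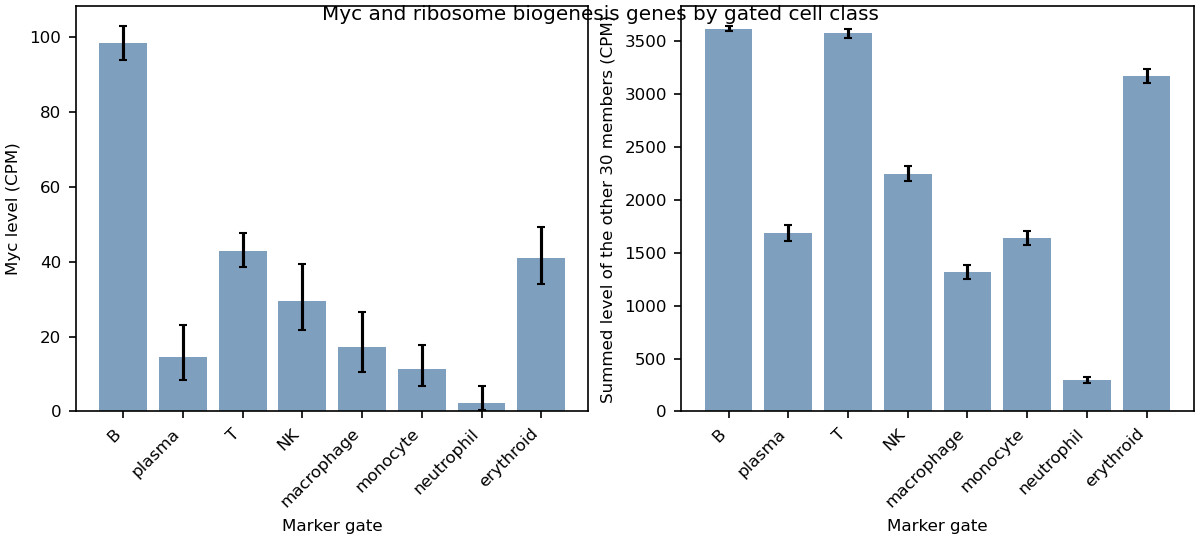
Summed UMIs per 1000000 (CPM, y axes from 0) in the 8 marker gates with at least 30 cells, for Myc (left) and for the other 30 members together (right). Bars are levels and whiskers exact 95% Poisson intervals; Myc stood at 98.4 CPM in B-gated and 42.9 in T-gated cells, while the other 30 stood at 3621 and 3577. Of the erythroid-gated cells, 4 of 234 held 113 of the 117 Myc UMIs and 7524 of the 9015 UMIs of the other 30.

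Against B-gated cells, a member was counted where it had at least 100 UMIs over both sides and called higher or lower past 1.5-fold, which is 0.585 on the log2 scale. In T-gated cells 0 of 30 members were called higher and 0 lower, where 14.0% and 17.5% of all 9424 counted genes were, and the members' median log2 ratio was -0.08 (all genes -0.04). With a mitochondrial maximum of 5%, which left 322 B-gated cells, 10 of 29 were lower (12.1% of all genes) and 0 higher (19.6%), and the median was -0.41 (all genes 0.09). Individual log2 ratios ran from -0.53 for Pes1, of the complex that matures the large subunit, to 0.42 for Rrp12, a factor of pre-ribosome export. Among the members with most UMIs, Npm1 was at 1054 CPM in T-gated and 921 in B-gated cells, and Ncl at 570 and 653. Myc itself was lower in T-gated cells by a log2 ratio of -1.20 (-1.37 to -1.03).

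NK-gated cells had 20 of 30 members called lower (19.7% of all genes) and 0 higher (22.6%), and the median was -0.75 against 0.11 over all genes. The lowest was Dph5, a methyltransferase that makes the diphthamide residue on elongation factor eEF2, at 10.3 CPM against 84.3 in B-gated cells (log2 ratio -3.03, -3.84 to -2.33). The small-subunit factors Heatr1 (-1.44) and Wdr43 (-1.10) and the large-subunit factors Mdn1 (-1.46), Nop16 (-1.33) and Pes1 (-1.03) were also lower. Other members were close to the B-gated level: Ebna1bp2 at -0.03, Nop10 at -0.16 and Polr1b at -0.22. A separate list of 72 other ribosome biogenesis genes had a median of -0.37 there, with 22 lower and 1 higher.

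Monocyte-gated cells had 23 of 30 lower (30.8% of all genes) and a median of -1.35 (all genes -0.12). The spread among members was wide. Tsr1, a factor of late small-subunit assembly, had 3 UMIs, or 1.88 CPM against 29.7 in B-gated cells, and Dph5, Gnl3 and Mdn1 had log2 ratios of -2.75, -2.26 and -2.21. Fbl, the methyltransferase of box C/D particles, was at 110 CPM against 132 (-0.27, -0.50 to -0.05), and Pes1, Heatr1 and Bop1 were at -0.11, -0.30 and -0.32 with intervals that include 0. Thus Fbl was nearly as high as in B-gated cells while its particle partners Nop58 (-1.89) and Nop56 (-1.32) were lower.

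Neutrophil-gated cells had all 30 members lower (71.8% of all genes), with a median of -4.11 against -1.40 over all genes. Npm1 was at 59.98 CPM against 921 (log2 ratio -3.94) and Ncl at 74.8 against 653 (-3.13). Dph5 had 2 UMIs (-5.76). Rrp9, the U3 particle protein, had 0 UMIs against 420 in B-gated cells, and a floor of 3 counts over the gate puts its log2 ratio at -3.33 or below. Macrophage-gated cells had 27 of 30 lower (64.0% of all genes) and a median of -1.56 (all genes -0.94), with Dph5 (-3.29) and Mdn1 (-3.22), the giant ATPase of the large-subunit precursor, at the bottom. With scaling by the median ratio of genes, the medians were -2.80 in neutrophil-gated and -0.64 in macrophage-gated cells.

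In plasma-gated cells Srm, spermidine synthase, was at 116 CPM against 37.5 in B-gated cells (log2 ratio 1.63, 1.35 to 1.90), and Odc1, ornithine decarboxylase and the first enzyme of the same polyamine pathway, was at 111 against 62.8 (0.82, 0.55 to 1.08). These were the 2 members called higher, where 6.54% of all genes were. The other 26 called members were lower, where 74.9% of all genes were, among them Dph5 (-3.04), the large-subunit factor Rrs1 (4.26 CPM against 34.1) and Mdn1 (-2.09). The members' median, -1.27, lay at that of all genes, -1.26, and immunoglobulin RNA takes much of the total in these 40 cells. Without immunoglobulin and other abundant families in the total the median was -0.47, with Srm at 2.43 and Odc1 at 1.62, and with scaling by the median ratio it was -0.04.

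The erythroid gate held cells of opposite kinds. Of its 234 cells, 4 had more than 50000 UMIs each (77055 to 129686), a median of 0.0999% haemoglobin RNA, and all 4 passed the cycling gate. These 4 cells carried 113 of the gate's 117 Myc UMIs and 7524 of its 9015 UMIs of the other members, which is 260 CPM of Myc and 17301 CPM (16913 to 17697) of the 30. The other 230 cells had 4 Myc UMIs, 618 CPM (587 to 651) of the 30 and a median of 88.1% haemoglobin RNA. The deep cells were singled out after their values were seen. The gate's median log2 ratio to B-gated cells was -0.50, with 14 members lower (83.5% of all genes) and 2 higher (6.44%). Without cells over 50000 UMIs the median was -3.61. It was above 0 under other settings: 0.47 with a minimum of 500 genes, 0.87 without abundant families in the total and 1.38 with scaling by the median ratio. The direction of the members in this gate therefore depends on the setting.

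Within B-gated cells the members were higher in cells with a Myc UMI, and none was lower. The 850 Myc-positive cells had 268 CPM of Myc and the 2089 Myc-negative cells 0. All 30 other members had a log2 ratio above 0, for 29 of them the interval lay above 0 (Rrp12 was the exception), and 14 were called higher and 0 lower. Over all 8645 counted genes 2.73% were called higher and 2.70% lower. The members' median log2 ratio was 0.57 and that of all genes -0.05. The Myc UMIs chose the cells, so Myc is in no count or median. The other members were chosen with earlier results of these data known, so their count and median are a description and not independent support.

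Dph5 and Srm had the widest ratios of the 30, and with Odc1 all 3 polyamine and diphthamide enzymes were called higher. Dph5 was at 133 CPM (124 to 142) in Myc-positive and 56.0 CPM (51.7 to 60.5) in Myc-negative B-gated cells, a log2 ratio of 1.25 (1.10 to 1.40), which ranked 30 among the 8644 counted genes other than Myc. Srm was at 57.1 CPM against 26.1 (1.13, 0.91 to 1.35). Odc1 was at 83.6 CPM against 50.7 (0.72, 0.55 to 0.89). Polr1b, a large subunit of RNA polymerase I, had 18.3 CPM against 10.8 (0.76, 0.39 to 1.14).

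Among the proteins of the box C/D particles, which methylate ribosomal RNA, Nop58 (160 against 97.9 CPM, log2 ratio 0.71) and Fbl (170 against 110 CPM, 0.63) were called higher and Nop56 (151 against 113 CPM, 0.42) was not. Of the box H/ACA particles, which make pseudouridine, Nhp2 (128 against 75.2 CPM, 0.77) was called. Their catalytic subunit Dkc1 was at 0.46, Gar1 at 0.55 and Nop10 at 0.30. In all UMIs the 4 partners of this particle thus did not share one ratio: the intervals of Nhp2 (0.63 to 0.91) and Nop10 (0.20 to 0.39) did not overlap. With cells thinned to 2000 UMIs, as described below, 0 of the 4 were called and their median was 0.27, so the call of Nhp2 did not hold at that depth.

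Of the nucleolar scaffold and chaperone proteins, Nolc1 (0.79), the GTPase nucleostemin, Gnl3 (0.65), and nucleolin, Ncl (0.61), were called. Nucleophosmin, Npm1, was at 1162 against 781 CPM (0.57, 0.53 to 0.62), just below the 1.5-fold line, and the RNA helicase Ddx21 at 174 against 136 CPM (0.36). No member of the small-subunit group was called (0 of 6, median 0.48): Rrp9 was at 0.57, Tsr1 at 0.57, Heatr1 at 0.50, Nob1, the nuclease that trims the small-subunit RNA, at 0.45, Rrp12 at 0.44 and Wdr43 at 0.42. In the large-subunit group 4 of 8 were called, namely Pa2g4 (0.76), Nop16 (0.69), Wdr12 (0.68) and Mdn1 (0.64). Wdr12 acts in 1 complex with Pes1 and Bop1, whose ratios were 0.27 and 0.44, and Ebna1bp2 and Rrs1 were both at 0.31. The 4 members with CACGTG in the window shown above stood at 0.64 (Mdn1), 0.57 (Tsr1), 0.42 (Wdr43) and 0.27 (Pes1), of which Pes1 was the lowest of all 30 members.

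Myc-positive cells were deeper, with a median of 6579 UMIs against 4840, so the split was repeated on cells thinned to 2000 UMIs. Then 377 cells had a Myc UMI and 2511 had none, 28 members were counted, 9 were called higher (2.65% of all genes) and 0 lower (5.49%), 26 lay above 0, and the median was 0.42 (all genes -0.04). Tsr1 (0.89), Dph5 (0.86), Nolc1 (0.84), Nop58 (0.78), Srm (0.77), Gnl3 (0.73), Nob1 (0.70), Fbl (0.65) and Bop1 (0.62) were called. In the small-subunit group 2 of 5 were now called (median 0.51), and in the large-subunit group 1 of 8 (median 0.30). The order of these 2 groups in all UMIs was thus reversed by thinning. Pes1 was at -0.26 (-0.88 to 0.31) and Rrs1 at 0.00, both with intervals that include 0. Over 9 further random thinnings the median ranged from 0.31 to 0.46 and the number called from 3 to 9, and in cells of 4000 to 8000 UMIs without thinning 4 of 29 were called higher (1.42% of all genes) and 0 lower (1.36%), with a median of 0.36 (all genes -0.01). Haemoglobin RNA, which B cells do not make, moved the other way (list median -0.60, and -2.12 after thinning), and its part in the result was not tested.

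**Figure D2:**
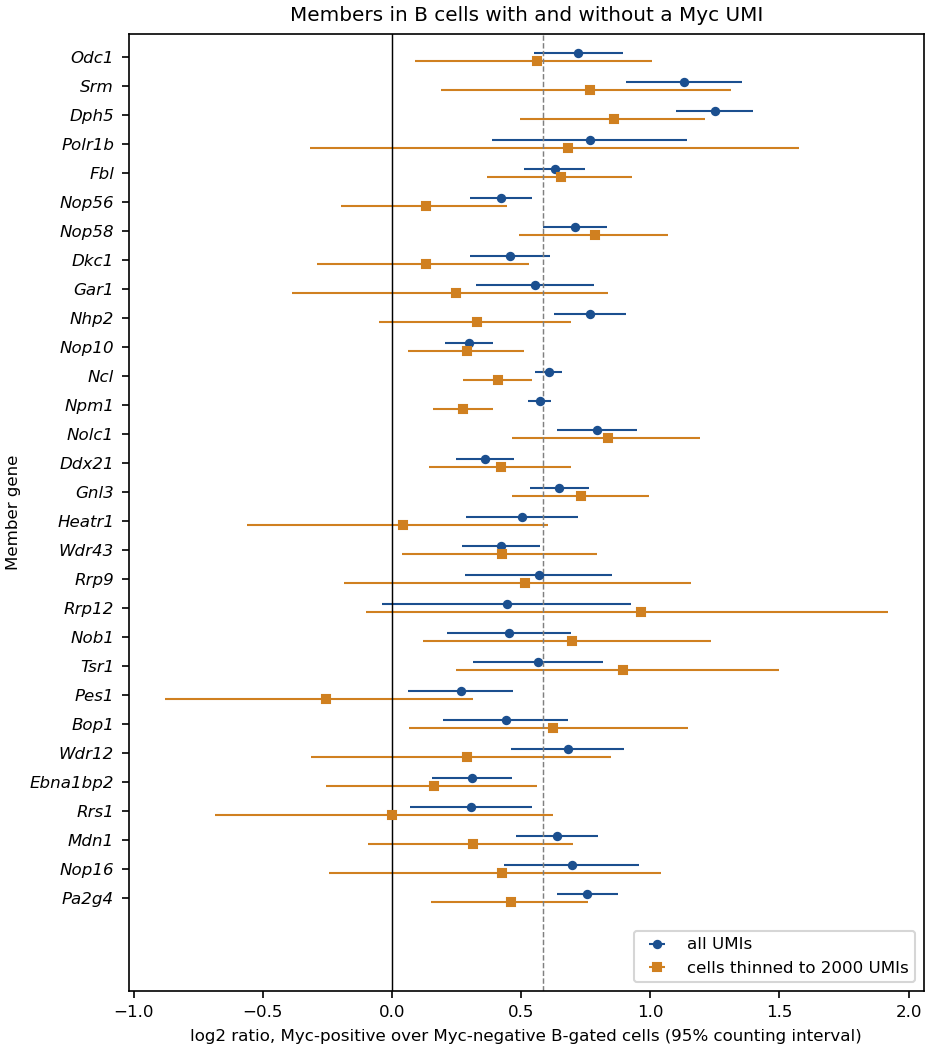
Log2 ratio of each of the 30 members between Myc-positive and Myc-negative B-gated cells (x axis), in all UMIs (circles) and after thinning every cell to 2000 UMIs (squares), with exact 95% counting intervals; the solid line marks 0 and the dashed line 1.5-fold. All circles lie above 0, from 0.27 for Pes1 to 1.25 for Dph5, and thinning moves Pes1 to -0.26.

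Of the 3 enzymes, Dph5 had the ratio that fell most when marginal zone-gated cells were left out. Its log2 ratio was 0.69 without marginal zone-gated cells and 0.48 in follicular-gated cells alone, against 1.25 in all B-gated cells. Srm was at 0.96 and 0.78 and Odc1 at 0.66 and 0.69 under the same restrictions. In follicular-gated cells 20 of 29 members were called higher (2.99% of all genes) and 0 lower (1.87%), with a median of 0.67 (all genes -0.01). Without marginal zone-gated cells 14 of 30 were called higher (2.16% of all genes) and 0 lower (1.99%), with a median of 0.57 (all genes -0.035). The ratios under these restrictions were not repeated on thinned cells, and the cause of the changes was not tested. Without Npm1 and Ncl, the remaining 28 members together were at 2587 CPM in Myc-positive and 1735 CPM in Myc-negative B-gated cells, a log2 ratio of 0.58 (0.55 to 0.61), and 0.46 (0.38 to 0.53) after thinning.

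At the fixed depth of 2000 UMIs the summed level of the 30 members was higher in B-gated cells with more Myc UMIs. It was 3083 CPM (3035 to 3132) in 2511 cells with 0, 3995 CPM (3831 to 4163) in 281 cells with 1, 4125 CPM (3808 to 4461) in 76 cells with 2 and 5200 CPM (4517 to 5957) in 20 cells with at least 3. The counting intervals of 0 and 1 were apart, as were those of 2 and at least 3, and those of 1 and 2 overlapped. Between these B-gated cells the variance of the members' summed UMIs was 4.38 times the mean, a spread that the intervals leave out. The order of 2 and at least 3, over 76 and 20 cells, is therefore not settled by them. Follicular-gated cells gave 2923, 3831, 3950 and, over 6 cells, 6250 CPM. Leaving out both marginal zone-gated and cycling cells gave 2929, 3735, 4064 and, over 8 cells, 5438 CPM.

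**Figure D3:**
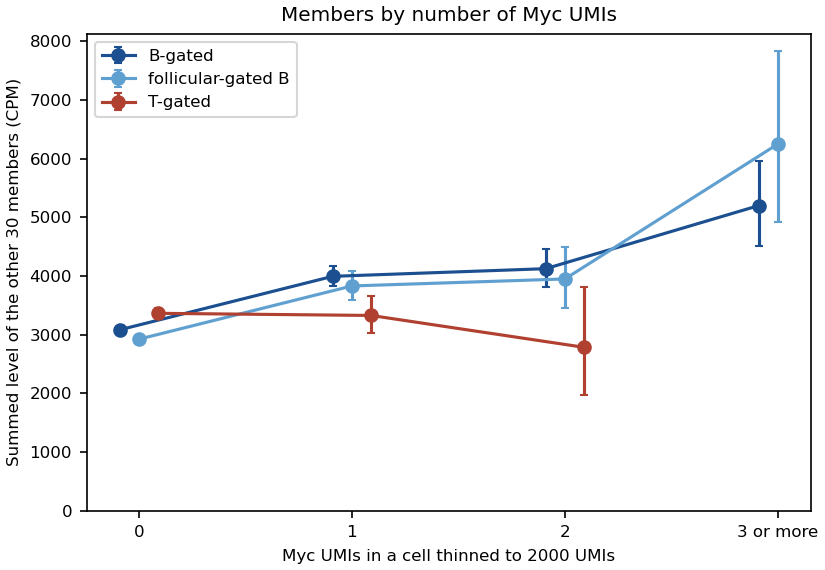
Summed CPM of the 30 members (y axis from 0) by the number of Myc UMIs in a cell thinned to 2000 UMIs (x axis), in all B-gated, follicular-gated B and T-gated cells, with exact 95% Poisson intervals; the single T-gated cell with at least 3 Myc UMIs is not drawn. B-gated cells go from 3083 to 5200 CPM and T-gated cells from 3365 to 2786.

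Read the other way, B-gated cells rich in member RNA had more Myc. Of the cells with 0 to 2 member UMIs among 2000, 11.2% had a Myc UMI, and of those with 3 to 5, 9.82% did. The share was 13.9% at 6 to 8, 16.7% at 9 to 11, 18.8% at 12 to 14 and 26.8% (20.3% to 34.2%) in the 168 cells with 15 or more, in which Myc was at 176 CPM against 70.5 in the lowest bin. These 168 cells held 25 cycling cells (14.9% against 3.31% of the others), 36 marginal zone-gated cells (21.4% against 8.01%) and 65 follicular-gated cells. The members varied more between B-gated than between T-gated cells: the variance of their summed UMIs was 4.38 times the mean in B-gated cells, with a maximum of 52 and a median of 5, and 2.29 times in T-gated cells, with a maximum of 42 and a median of 6.

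In T-gated cells the same split gave less. The 237 Myc-positive cells against 834 without had 28 members counted, 4 called higher (1.79% of all genes) and 0 lower (3.61%), and a median of 0.33 (all genes -0.06). Those called were Gar1 (49.2 against 29.6 CPM, log2 ratio 0.73), Rrs1 (36.6 against 22.4 CPM, 0.71), Srm (46.0 against 29.3 CPM, 0.65) and Nhp2 (118 against 78.4 CPM, 0.59). The median was 0.18 without the 1 T-gated cell over 50000 UMIs and 0.24 without cycling cells, with 2 called higher in each case (1.34% and 0.927% of all genes), and 9 of 11 counted mitotic genes were higher in the Myc-positive cells too. After thinning (75 against 984 cells) 18 were counted, 0 were called higher (4.82% of all genes) and 2 lower (12.6%), and the median was 0.02 (all genes -0.03). In NK-gated cells, 30 with a Myc UMI against 275 without, 9 members were counted and all 9 lay above 0. Of these 3 were called higher (5.64% of all genes) and 0 lower (9.81%), and the median was 0.56 (all genes -0.06).

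The graded pattern of the B-gated cells was not seen in T-gated cells. Their summed level was 3365 CPM (3284 to 3447) with 0 Myc UMIs, 3328 (3027 to 3652) with 1 and, in 7 cells, 2786 (1981 to 3808) with 2. The share of T-gated cells with a Myc UMI was 5.71%, 8.36%, 6.84%, 7.10%, 6.82% and 2.44% over the same bins of member UMIs. No test of the difference between B-gated and T-gated cells was possible with 1 pooled sample.

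Gene lists beside the members give the setting of the B cell split. Of 72 other ribosome biogenesis genes 9 were called higher and 0 lower, with a median of 0.23: Rrp1b, an RNA processing factor, was at 1.26, Naf1, which loads the box H/ACA particles, at 0.91 and Urb2 at 0.87. Of 29 metabolic genes known as Myc targets 2 were higher (Ctps, the enzyme that makes CTP, at 1.11, and the mitochondrial chaperone Hspd1 at 0.60), with a median of 0.40. Ribosomal protein genes had a median of 0.17 with 0 of 83 called. Its largest ratio was that of Rplp0, of the ribosomal stalk, at 0.36. Of 17 counted B cell activation genes 7 were higher and 0 lower (median 0.36), with the chemokine Ccl4 at 1.75 and the survival gene Bcl2a1b at 1.13, and of 12 quiescence genes 0 were higher and 4 lower (median -0.42), with the cell cycle inhibitor Cdkn2d at -0.90 and Klf2 at -0.66. The partners and antagonists of Myc, 9 of them counted, had a median of -0.27, and Mlx (-0.62) was the 1 called.

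The B-gated cells were divided by markers that are not members. Marginal zone-gated cells (257) had the most Myc, at 197 CPM (180 to 216), against 89.4 CPM (82.9 to 96.3) in 1417 follicular-gated, 71.3 CPM (59.2 to 85.1) in 258 transitional-gated and 52.9 CPM (37.4 to 72.6) in 103 Bhlhe41-positive cells, Bhlhe41 being a marker of B-1 cells. The 904 B-gated cells in none of these subsets had 81.9 CPM. At 1000 UMIs per cell the share with a Myc UMI was 16.0% (11.7% to 21.0%) in marginal zone-gated and 6.21% in follicular-gated cells. The other 30 members stood at 4917 CPM (4829 to 5007) in marginal zone-gated, 4412 CPM in Bhlhe41-positive, 3268 CPM (3227 to 3308) in follicular-gated and 3215 CPM in transitional-gated cells. The Myc intervals of Bhlhe41-positive and transitional-gated cells overlapped, so these subsets could not be ordered in Myc.

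Marginal zone-gated over follicular-gated cells had 8 of 29 members called higher (6.26% of all genes) and 0 lower (10.3%), with a median of 0.40 (all genes -0.09). Dph5 stood at 254 CPM (234 to 275) against 55.0 CPM (49.9 to 60.5), a log2 ratio of 2.21 (2.03 to 2.39). Odc1 was at 110 against 46.7 CPM (1.24) and Srm at 62.6 against 30.9 CPM (1.02), so all 3 polyamine and diphthamide enzymes were called. Pa2g4 (0.89), Npm1 (0.85), Nhp2 (0.83), Polr1b (0.70) and Dkc1 (0.60) completed the 8.

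None of the 5 counted small-subunit factors was called, with Tsr1 at -0.04, Wdr43 at 0.19, Heatr1 at 0.21, Nob1 at 0.26 and Rrp9 at 0.33. The large-subunit factors Rrs1 (-0.17), Ebna1bp2 (-0.12) and Bop1 (-0.07) were not called either. The 72 other ribosome biogenesis genes showed a median of 0.09, with 1 of 70 counted higher and 2 lower. Marginal zone-gated cells were deeper (median 8384 against 4953 UMIs) and 19 of the 257 were cycling, against 15 of 1417. Without cycling cells 7 members were called higher (4.99% of all genes) and 0 lower (10.2%), and the median was 0.29 (all genes -0.10), with Dph5 at 2.31, Odc1 at 0.94, Srm at 0.82 and Pa2g4 at 0.59.

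Bhlhe41-positive over follicular-gated cells also had 8 of 29 higher (7.54% of all genes) and 0 lower (8.69%), with a median of 0.38 (all genes 0.02) and Myc at -0.76 (-1.27 to -0.29). The 8 were Odc1 (0.98), Dkc1 (0.88), Srm (0.85), Gar1 (0.77), Nop16 (0.74), Nhp2 (0.70), Pa2g4 (0.70) and Polr1b (0.68, on 15 UMIs, with an interval that includes 0). Dph5 was at 65.4 CPM against 55.0, so its wide ratio in marginal zone-gated cells had no counterpart here. Of the Bhlhe41-positive cells 11 of 103 were cycling, against 15 of 1417 follicular-gated cells. Without cycling cells (92 against 1402) 6 members were called higher (6.98% of all genes) and 0 lower (9.18%), with a median of 0.34 (all genes 0.01). With a mitochondrial maximum of 5%, 7 members were counted over 15 and 105 cells, 2 higher and 1 lower. The share of all genes under that setting is not given here, so these counts describe the setting and are not a result about the members. Both comparisons share the follicular-gated cells. Transitional-gated cells had 0 higher (3.87% of all genes) and 2 lower (4.23%), Polr1b at -1.02 and Gnl3 at -0.60, and a median of -0.14 (all genes 0.00).

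In T-gated cells, CD8 over CD4 cells had Myc at 52.1 against 36.1 CPM (log2 ratio 0.53), with a share of Myc-positive cells at 1000 UMIs of 5.76% against 3.37%. Of 28 members counted 0 were higher (4.21% of all genes) and 1, Wdr12, lower (-0.64, 5.75% of all genes), and the median was 0.08 (all genes -0.05). Odc1 was at 54.4 CPM in CD8 and 68.6 CPM in CD4 cells.

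Cycling B-gated cells, those with at least 2 of 6 mitotic genes detected, had less Myc and more of the other members. The cycling cells were deeper (median 9983 against 5091.5 UMIs), and this comparison was not repeated on thinned cells. The 119 cycling cells had 64.2 CPM of Myc against 101 CPM in the 2820 others (log2 ratio -0.66, -0.98 to -0.36), while 11 of 30 members were called higher (14.6% of all genes) and 0 lower (21.4%), with a median of 0.47 (all genes -0.10). Pa2g4, a protein of late large-subunit assembly, was at 313 against 115 CPM (1.45), Odc1 at 141 against 55.8 CPM (1.34), Srm at 76.6 against 34.0 CPM (1.17), Npm1 at 1748 against 848 CPM (1.04) and Nhp2 at 177 against 87.3 CPM (1.02). The metabolic Myc targets had 21 of 29 higher. Leaving cycling cells out of the Myc split in B-gated cells gave 17 members called higher (2.67% of all genes) and 0 lower (2.51%), with a median of 0.60 (all genes -0.05).

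Cycling T-gated cells (49 against 1022, at a median of 12121 against 6834.5 UMIs) also had less Myc, at 14.9 against 45.8 CPM (log2 ratio -1.61, -2.63 to -0.76). Of 28 members 7 were higher (22.1% of all genes) and Dph5 was the 1 lower (-1.57, 17.8% of all genes). Their median of 0.30 (all genes 0.08) rested on 1 cell with over 50000 UMIs. Without it the median was -0.19, with 1 higher (21.0% of all genes) and 6 lower (17.9%), and all genes at 0.06. In the erythroid gate 17 members were counted and all 17 were higher in cycling cells (89.9% of all genes higher, 3.12% lower), a median of 6.16 against 4.27 over all genes that includes the 4 deep cells described above, and 3.54 without them.

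**Figure D4:**
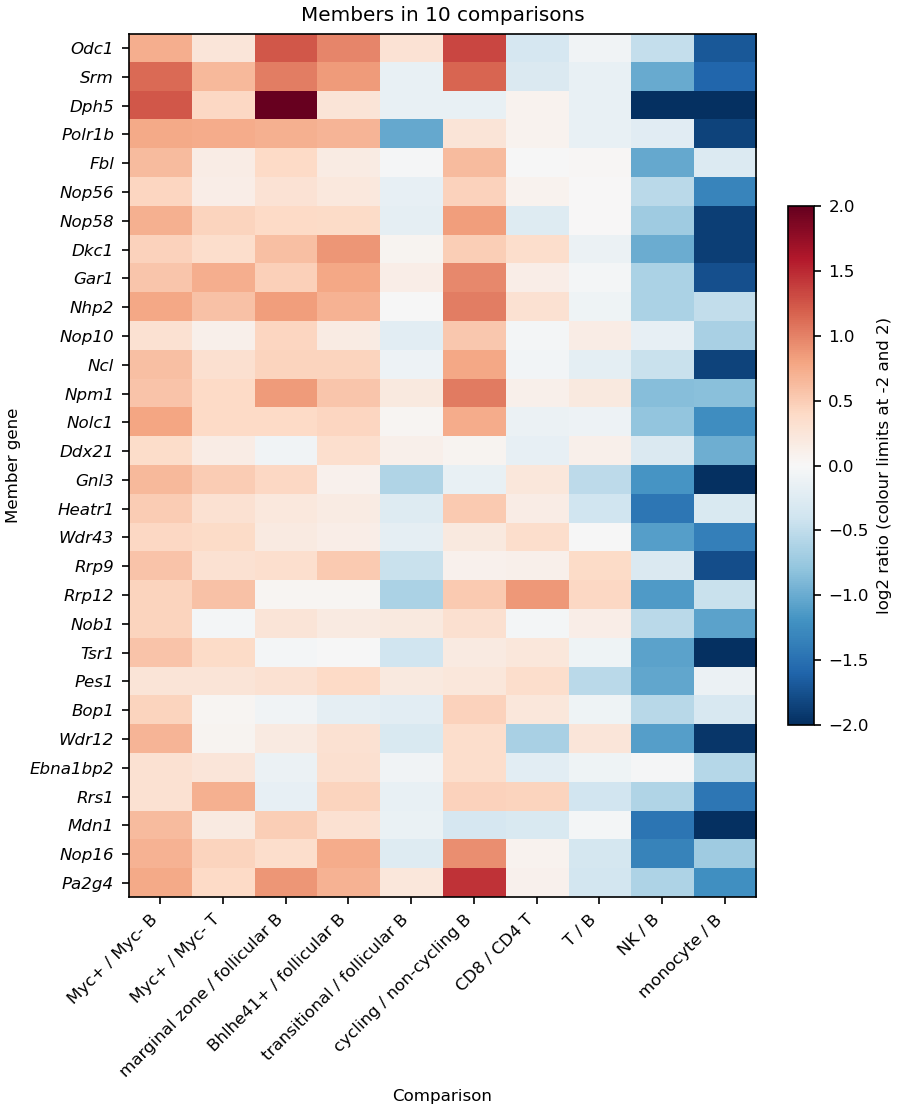
Log2 ratio of each of the 30 members (rows, by role) in 10 comparisons (columns), red where the first group named is higher and blue where it is lower, with colours ending at -2 and 2. The first column is red throughout, Dph5 is darkest in the marginal zone column (2.21), and the NK and monocyte columns are blue apart from members near 0 such as Ebna1bp2 in NK-gated cells (-0.03).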

How the data were processed

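Single-cell 3′ RNA libraries of spleen cells were mapped to mm10-3.0.0, per the labels' protocols. The sources used here do not name the mapping program. The authors deposited raw UMI counts by gene symbol and barcode, without normalization, for 31017 symbols and 7524 barcodes (46882070 UMIs, median 4986.5 per barcode). Every value was whole, and the table was treated as 1 pooled sample.

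Barcodes with under 200 genes (101) or over 10% mitochondrial UMIs (857) were removed, 936 in all. Doublets were not removed in the values reported. Scrublet, as an alternative, called 137 of 6588 cells (2.08%). B subsets were set by Cd93 (transitional), at least 2 of S1pr3, Dtx1, Cd9, Myof and Cd1d1 without Fcer2a (marginal zone), Bhlhe41 without Fcer2a, and Fcer2a alone (follicular). T-gated cells were split by Cd4 against Cd8a or Cd8b1. Levels carry exact Poisson intervals, shares Clopper-Pearson intervals and ratios exact conditional binomial intervals. A count of 0 was taken to allow 3 counts, and medians hold such genes at that bound. Thinning drew UMIs without replacement with seed 0. Python 3.11.15, numpy 2.4.6, scipy 1.17.1, scanpy 1.11.5 and matplotlib 3.10.9 were used. The ratio step was tested on simulated counts.

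All 31 members are reported, and of each other list at most the 3 genes with the largest ratios are named. The promoters shown are those of members other than Myc that hold CACGTG. Members and lists were chosen with earlier results of these data known. Alternatives changed the filters, gates, scaling, minimum count, thinning, Myc cut, doublets and cell sets. Those that left out cells over 50000 UMIs, subsets, or cells outside 4000 to 8000 UMIs, and the further thinnings, were chosen after the data had been seen.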

Additional observations from a re-analysis of the deposited data

How the results depend on the processing

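Across all alternatives run, the members' median in Myc-positive over Myc-negative B-gated cells stayed above 0. No paired analysis was possible because the counts came as 1 pooled table, and for the same reason no replicate could be left out. With a mitochondrial maximum of 5%, which left 322 B-gated cells, the median log2 ratio of members was 1.04 in that comparison, -1.87 for plasma, -0.41 for T, -1.34 for NK, -1.78 for monocyte and -4.01 for erythroid over B-gated cells, 0.61 for marginal zone and -0.67 for transitional over follicular-gated cells, and 0.97 for cycling B-gated and 3.56 for cycling erythroid-gated cells. Among the single genes recomputed outside the erythroid gate, 2 changed sign there, Polr1b in transitional-gated (1.17) and Nop16 in Bhlhe41-positive cells (-0.41). A minimum of 500 genes gave 0.47 for erythroid over B-gated cells. Without abundant families in the total the medians were -0.47 for plasma, 0.87 for erythroid and 3.95 for cycling erythroid-gated cells. With median-of-ratios scaling they were -0.0353 for plasma, -0.64 for macrophage, -2.80 for neutrophil, 1.38 for erythroid and 1.92 for cycling erythroid-gated cells. Without cells over 50000 UMIs they were -3.61 for erythroid, -0.19 for cycling T-gated and 3.54 for cycling erythroid-gated cells. The number of members called higher in Myc-positive B-gated cells was 9 after thinning and 4 in cells of 4000 to 8000 UMIs, against 14, and 3 of the further thinnings gave medians of 0.31, 0.33 and 0.35. The cause was not tested. The other 168 values, medians of whole comparisons or the count in the B cell split, stayed within the counting interval or within 1.5 times the count. Other counts of called members moved by more. They are given here without the share of all genes under the same setting, so they describe the setting and are not results about the members. With a mitochondrial maximum of 5%, T over B-gated cells had 10 lower against 0, Myc-positive T-gated cells 8 higher against 4, transitional-gated cells 6 lower against 2, cycling T-gated cells 2 lower against 1, and Bhlhe41-positive cells 2 higher against 8 and 1 lower against 0. Plasma-gated cells had 1 higher there against 2. With no mitochondrial maximum transitional-gated cells had 1 lower. A gate lead of 1 marker gave 19 higher in cycling B-gated cells against 11, and, like leaving out Scrublet doublets, 2 lower in cycling T-gated cells. Without abundant families plasma-gated cells had 13 lower against 26, and cycling T-gated cells 2 higher against 7 and 4 lower. With median-of-ratios scaling plasma-gated cells had 5 higher and 3 lower, macrophage-gated cells 2 higher against 0 and 16 lower against 27, and cycling T-gated cells 3 lower. With no UMI minimum CD8 over CD4 cells had 1 higher against 0. The erythroid counts also moved, and fell to 3 counted members for cycling cells without cells over 50000 UMIs or with the lower mitochondrial maximum. Members with few UMIs, such as Rrp12 and Polr1b, were limited by depth.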

Other observations

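The small gates, each under 30 cells, gave levels that belong to no comparison above. The 12 cells of the myeloid progenitor gate, which express the granule protease genes Elane and Prtn3, had 85.0 CPM of Myc (55.0 to 125) and 6185 CPM (5904 to 6476) of the other 30 members, and 11 of the 12 were cycling. Npm1 was at 1938 CPM, Ncl at 1054 CPM, Fbl at 248 CPM and Srm at 153 CPM in these cells, while Dph5 had 3 UMIs. The 24 cells of the conventional dendritic cell gate had 5 Myc UMIs and 2923 CPM of the 30 members. The 9 cells of the plasmacytoid dendritic cell gate had 0 Myc UMIs of 89341, which allows up to 33.6 CPM, and 2407 CPM of the 30. The 20 cells of the platelet and megakaryocyte gate had 0 Myc UMIs of 20775, which allows up to 144 CPM, and 3899 CPM (3096 to 4846) of the 30. Odc1 alone held 44 of these 81 member UMIs (2118 CPM), and Nop56, Dkc1, Nolc1, Ddx21 and Gnl3 had 0.

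Of the 1197 cells in no gate, 481 had fewer than 2 markers of every gate and 716 lacked a lead of 2 over another gate, and they held 31.2 CPM of Myc and 2786 CPM of the other members.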
